A study of Homo sapiens with 12 samples.

Results

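The HOX cluster genes of the lung cancer line NCI-H1299 were described across 4 groups of 3 arrays, 12 Affymetrix HG-U133 Plus 2.0 arrays in all. Members were the genes with a HOX letter and number as the only symbol of a probe set in the platform annotation. Where a gene had several such probe sets, the one with the highest 12-array mean stood for it. Of 39 HOX cluster genes that RefSeq's gene table (GRCh38.p14) lists, 28 were members, out of 19775 genes tested, and the other 11 were not analysed here. They were HOXA2 of the HOXA cluster, 10 genes of HOXB (HOXB1 to HOXB9 and HOXB13), 9 of HOXC (HOXC4, HOXC5, HOXC6 and HOXC8 to HOXC13) and 8 of HOXD (HOXD1, HOXD4 and HOXD8 to HOXD13). The members had 44 probe sets, and 13 members had more than 1.

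NCI-H1299 is an established line from a human non-small cell lung cancer, and every sample came from it. The groups were xenograft tumours grown from spheroid cells (spheroid xenograft), xenograft tumours grown from parental cells (parental xenograft), spheroid cells in culture (spheroid culture) and parental cells in medium with serum (parental culture). Spheroid cells were floating cells that had spent 7 to 10 days in a stem cell medium and were then moved to flasks that hinder attachment. No label used here describes the host animals or says whether each tumour had its own. The p-values therefore reflect only how much these samples varied, some of which may be technical. A tumour also holds host cells, and in such bulk RNA fewer cells of a type and less RNA per cell cannot be told apart.

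HOX proteins are transcription factors with a homeodomain that give cells along the body axis their positional identity. Their genes lie in 4 clusters, and within a cluster the order on the chromosome follows the order of expression from head to tail, low-numbered genes being anterior and high-numbered genes posterior. Genes of the same number in different clusters are paralogs. HOX proteins bind DNA together with TALE homeodomain cofactors of the PBX and MEIS families. Trithorax proteins keep active HOX genes on and Polycomb proteins keep silent ones off, so that adult tissues and the lines derived from them often retain a pattern of active HOX genes.

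Sequences were available from RefSeq for the promoters of 11 members, and 3 sequences are shown because values of their genes are described below. HOXC4 and HOXC5 share the window printed first, the 250 bases before a common start at chr12:54016638-54016887 on the plus strand (GRCh38.p14). The window of HOXD13, at chr2:176092471-176092720 on the plus strand, is printed because this posterior gene had the lowest adjusted p of the 28 members. In both, capitals mark CG pairs, of which there are 14 in the first and 21 in the second. The mature hsa-miR-10a-5p, at chr17:48579904-48579926 on the minus strand, belongs to a microRNA gene inside the HOXB cluster, and its seed (bases 2 to 8) is in capitals.
HOXC4 and HOXC5: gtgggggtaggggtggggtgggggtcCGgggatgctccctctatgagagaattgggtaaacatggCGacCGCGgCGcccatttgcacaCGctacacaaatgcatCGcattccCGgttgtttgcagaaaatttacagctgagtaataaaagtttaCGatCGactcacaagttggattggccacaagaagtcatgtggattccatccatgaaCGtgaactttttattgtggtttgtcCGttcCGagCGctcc
HOXD13: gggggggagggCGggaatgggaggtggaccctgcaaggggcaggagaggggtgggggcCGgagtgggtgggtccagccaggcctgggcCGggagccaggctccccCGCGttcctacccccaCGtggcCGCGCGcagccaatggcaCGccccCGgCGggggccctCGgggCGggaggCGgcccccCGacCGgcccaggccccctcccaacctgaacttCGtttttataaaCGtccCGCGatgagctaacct
hsa-miR-10a-5p: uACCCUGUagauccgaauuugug

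The 11 promoter windows, each of 300 bases from before to just after the start, made up 10 distinct sequences with a median of 21 CG pairs, against 14 over 35116 RefSeq promoters. The letters TATAAA, searched on both strands, were found in 1 of the 11 windows, that of HOXD13, and in 11.5% of all promoters. HOXD13 had 2 such matches, 1 on each strand, overlapping each other just before the start. The letters TGATNNAT, a form of the joint PBX and HOX binding site, were found on either strand in the windows of HOXA2, HOXB1 and HOXD11, 3 of 11, and in 7.40% of all promoters. The pair of motifs overlapped in 77 promoters, none of a member. These matches describe the letters only.

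The expression values are log2 values, so that 1 unit is a 2-fold difference. Because probe sets differ in how strongly they bind, each member was placed against the distribution of its own array and not ranked against other members. Over the 12 arrays the lower quartile of all probe sets lay between 4.63 and 4.80, the median between 5.85 and 6.03 and the upper quartile between 7.56 and 8.07. Arrays 1 and 2 of parental culture stood apart from the rest. Their control probe set for the 5′ end of 18S RNA read 6.96 and 10.50, against 12.21 to 13.34 on the other 10 arrays, and the gap between the 3′ and 5′ GAPDH controls was 0.49 on array 1 and 0.019 to 0.13 on the other 11. For most members and genes whose comparison with parental culture is described below, the value without both arrays is given as well. It is not given for KRT18 or the interaction of HOXC10, for example. The fit without both arrays keeps 1 parental culture array, assumed to vary like the other groups.

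Of the 28 members, 5 were above the upper quartile of every array, which is 17.9% of members against 30.6% of all genes. These were HOXB2, HOXB3, HOXB4, HOXB7 and HOXC6. A further 11 were above the median of every array, 6 lay on both sides of it, 4 were below it on every array and 2 were below the lower quartile on every array. By position in the cluster, 2 of 5 members of paralog groups 1 to 3 were above the upper quartile on all 12 arrays, as were 3 of 11 of groups 4 to 8 and 0 of 12 of groups 9 to 13. Both members below the lower quartile throughout, HOXD11 and HOXD12, were posterior genes.

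**Figure D1:**
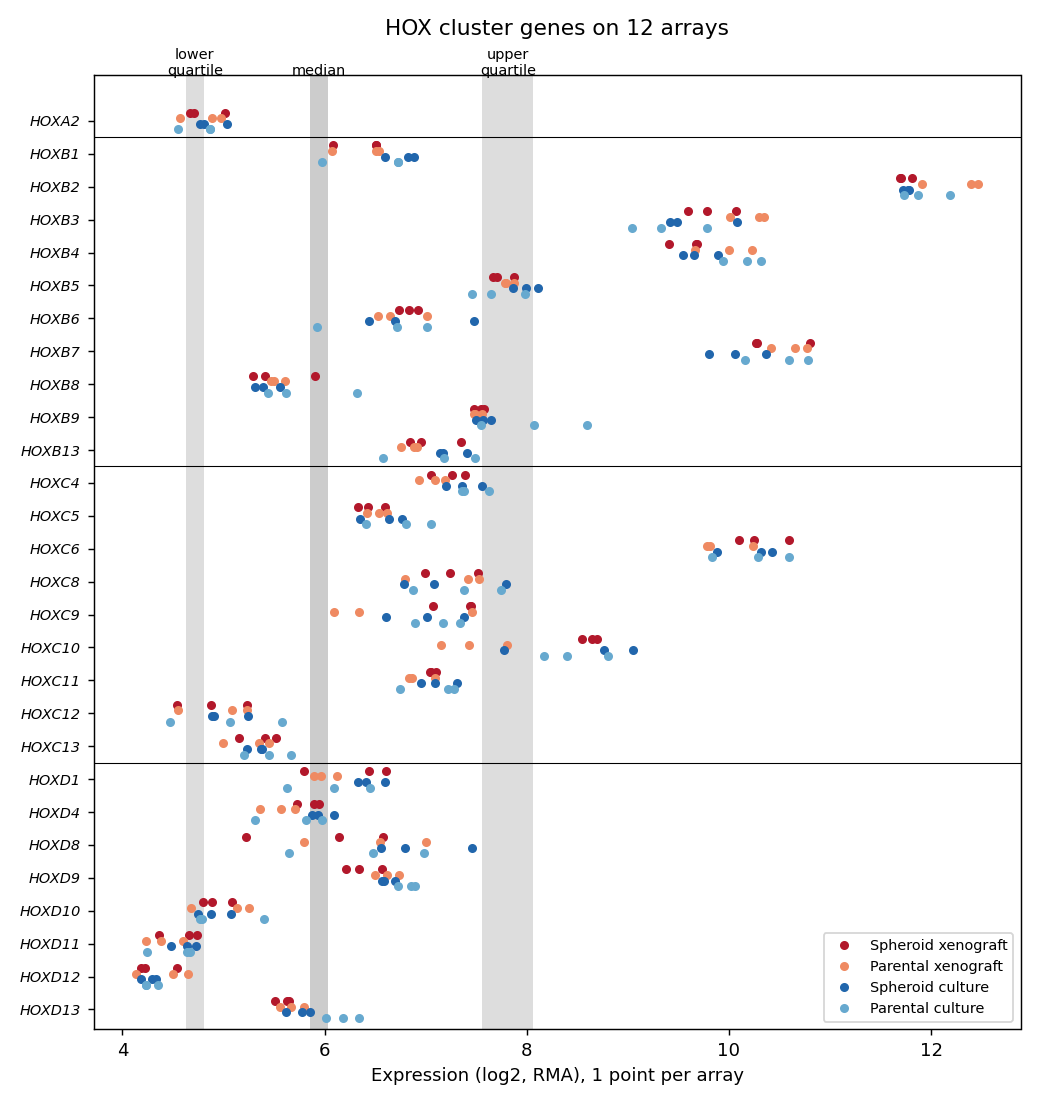
Expression of the 28 HOX members, with 1 point per array, grouped by cluster from HOXA at the top to HOXD at the bottom. The horizontal axis is log2 expression, colours give the 4 groups, and the grey bands span the lower quartile (4.63 to 4.80), the median (5.85 to 6.03) and the upper quartile (7.56 to 8.07) of the 12 arrays. HOXB2, HOXB3, HOXB4, HOXB7 and HOXC6 lie right of the upper quartile band in every group, and HOXD11 and HOXD12 lie at or left of the lower quartile band.

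The HOXB cluster, on chromosome 17, held 4 of the 5 members above the upper quartile. HOXB2, an anterior gene that in the mouse specifies hindbrain and facial motor neurons, read 11.70, 11.69 and 11.81 in spheroid xenografts, 12.39, 12.47 and 11.91 in parental xenografts, 11.78, 11.73 and 11.78 in spheroid culture and 11.73, 12.19 and 11.87 in parental culture. HOXB3 and HOXB4, both known for roles in blood stem and progenitor cells, ranged over the 12 arrays from 9.04 to 10.35 and from 9.41 to 10.31. HOXB7, which has been studied as a growth-promoting gene in several carcinomas, ranged from 9.80 to 10.80. All 4 were high on every array of every group.

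The other HOXB members were nearer the middle of the arrays. HOXB5, which acts in lung branching and in the enteric nervous system in the mouse, ranged from 7.45 to 8.11 and was above the upper quartile on 7 arrays. HOXB1, the most anterior HOXB gene, ranged from 5.97 to 6.88, HOXB9 from 7.47 to 8.59 and HOXB13, a posterior gene known from prostate, from 6.58 to 7.49. These 4 were above the median on all 12 arrays. HOXB6 was above the median on 11 arrays and HOXB8 on 2.

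In the HOXC cluster, on chromosome 12, 7 of 9 members were above the median on all arrays. HOXC6, which in the mouse is expressed at forelimb and thoracic levels, was the only one above the upper quartile on all 12, with 10.10, 10.25 and 10.59 in spheroid xenografts, 9.81, 9.78 and 10.24 in parental xenografts, 10.43, 9.88 and 10.31 in spheroid culture and 10.29, 10.60 and 9.83 in parental culture. HOXC10, a posterior gene that in the mouse acts in hindlimb motor neurons, was above the upper quartile on 10 arrays. HOXC4, HOXC5, HOXC8, HOXC9 and HOXC11 lay between the median and about the upper quartile, with 12-array means of 7.28, 6.58, 7.26, 7.02 and 7.05. The 2 most posterior genes, HOXC12 and HOXC13, a gene of hair and nail formation, were below the median on every array. HOXC4, HOXC5 and HOXC6 share a start in the gene table, so a probe set of one may also read transcripts of another.

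The HOXD cluster, on chromosome 2, was lower in the distribution: 0 of 8 members were above the upper quartile on every array and 1, HOXD9, was above the median on every array, from 6.22 to 6.89. HOXD1, HOXD4, HOXD8 and HOXD13 lay on both sides of the median. HOXD10, a limb and motor neuron gene, ranged from 4.68 to 5.40, HOXD11, which in the mouse shapes the forearm and kidney, from 4.24 to 4.74 and HOXD12, a digit gene, from 4.13 to 4.65. The one HOXA member, HOXA2, which patterns the second branchial arch in the mouse, ranged from 4.55 to 5.03. A low reading places a probe set near the floor of the array and does not show that the transcript was missing.

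The members varied over the arrays about as much as other genes did. Their median range over the 12 arrays was 0.86 log2 units against 0.91 for all genes, and their median SD within groups was 0.21 against 0.21. The range was under 1 unit for 19 of 28 members, and HOXD8 (2.24), HOXC10 (1.90) and HOXB6 (1.55) had the widest. The labelled tissue was set against its markers. Of 4 mesenchymal genes, VIM (13.55 to 14.70) and ZEB1 (9.30 to 10.93) were high on every array, and differences of FN1 and CDH2 are described below. Of 8 epithelial genes, EPCAM (3.98 to 4.40) and CDH1 (4.30 to 4.70) were below the lower quartile on every array. Keratin genes went the other way, KRT18 (10.28 to 13.01) being above the upper quartile and KRT8 (6.66 to 9.17) above the median on every array, and KRT19, CLDN3, CLDN4 and ESRP1 read between 5.11 and 6.49. Of 7 lung epithelial genes, 6 were measured. Among these the lung factor NKX2-1 read 6.40 to 7.09, above the median and below the upper quartile. Values of the other lung genes are not reported here, so 1 marker does not settle lung identity.

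With group means only and no pairing of arrays, no HOX member was called in any comparison by limma. The threshold was a Benjamini-Hochberg adjusted p under 0.05, adjusted over all 19775 genes. Spheroid minus parental in culture called 0 of 28 members and 2.46% of all genes. The same contrast in xenografts called 0 members and 0.233% of genes, xenograft minus culture called 0 members in parental cells and 0 in spheroid cells against 3.47% and 0.0202% of genes, and the interaction, which sets the spheroid and parental difference in xenografts against the same difference in culture, called 0 members and 0.137% of genes. A test of any difference among the 4 groups called 0 members and 5.09% of genes. With shares this low over all genes, a count of 0 of 28 was near the background.

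At an unadjusted limma p under 0.05 the members also stood near the background. In culture 3 members passed (10.7%, against 14% of all genes), all of them lower in spheroid culture: HOXB4, HOXB9 and HOXD13. In xenografts 2 passed (7.14%, against 7.34%), HOXC10 higher and HOXB2 lower in spheroid xenografts. For xenograft minus culture, 5 passed in parental cells (17.9%, against 14.3%), HOXB3 higher and HOXB9, HOXC4, HOXC10 and HOXD13 lower in the xenografts, and 1 in spheroid cells (3.57%, against 7.39%), HOXD8, lower in the xenografts. The interaction had 1, HOXC10 (3.57%, against 7.41%), and the test of any difference had 6, HOXB2, HOXB3, HOXB4, HOXC10, HOXD9 and HOXD13 (21.4%, against 17.9%).

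The intervals bound how large a difference in the array readings could have been missed. For members near the floor of the array, the intervals do not bound a change in the transcript. In culture, the 95% interval of the difference (not adjusted for the number of genes) lay within 2-fold either way for 27 of 28 members, the exception being HOXD8. It did so for 25 members in xenografts, for 23 in xenograft minus culture of parental cells, for 26 of spheroid cells and for 19 in the interaction. Median absolute differences of members and of all genes were 0.17 and 0.18 in culture, 0.15 and 0.13 in xenografts, 0.17 and 0.16 for xenograft minus culture of parental cells, 0.11 and 0.16 for spheroid cells and 0.21 and 0.19 for the interaction.

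**Figure D2:**
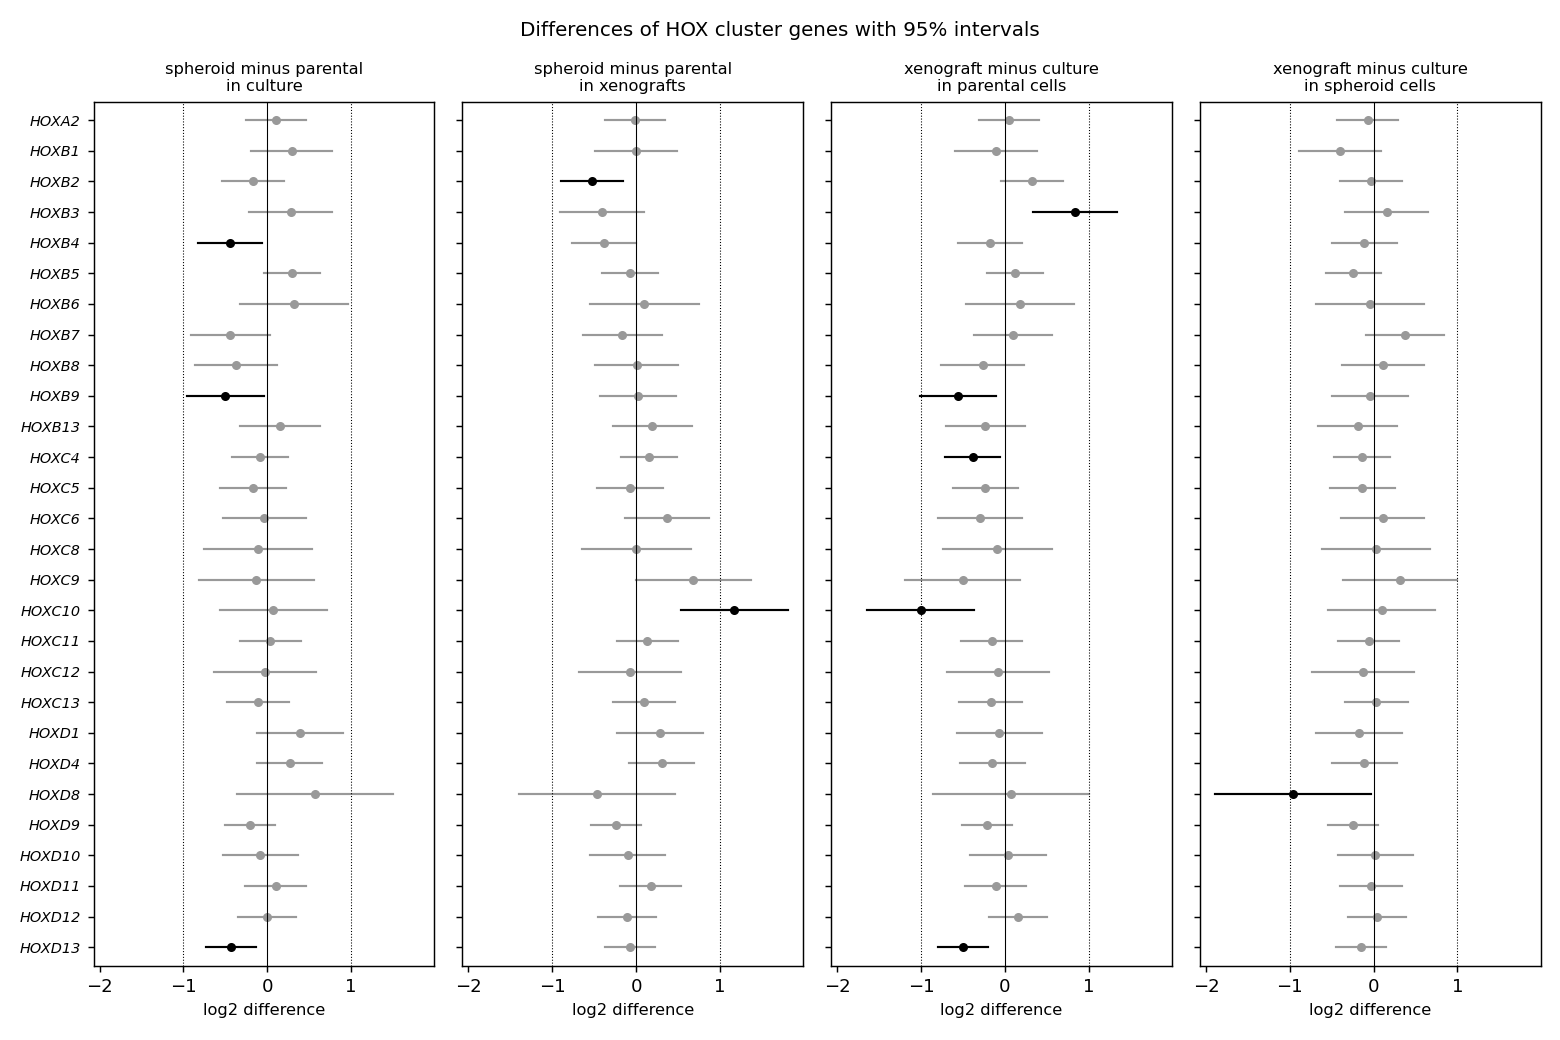
Log2 differences of the 28 HOX members in 4 comparisons, 1 panel each, with points for the estimate and bars for its 95% interval from limma. Black marks an unadjusted p under 0.05, grey the rest, and dotted lines mark a 2-fold difference either way. The estimate for HOXC10 lies past 2-fold in the xenograft panel (1.17) and in the panel of parental cells (-1.0), and most intervals in each panel cross 0.

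HOXC10 had the largest difference of any member between spheroid and parental xenografts. It read 8.54, 8.69 and 8.64 in spheroid xenografts and 7.80, 7.15 and 7.42 in parental xenografts, with 7.78, 8.76 and 9.05 in spheroid culture and 8.17, 8.81 and 8.40 in parental culture. All 3 parental xenografts were below every spheroid xenograft and every parental culture array, while spheroid culture overlapped parental culture. Spheroid xenografts averaged 8.63 ± 0.076 and parental xenografts 7.46 ± 0.33 (SD, n = 3 each). The difference was 1.17 (SE 0.29, 95% interval 0.53 to 1.81, limma adjusted p = 0.173). In parental cells the xenografts averaged below culture (difference -1.0, SE 0.29, 95% interval -1.64 to -0.36, limma adjusted p = 0.0926), and the difference was -0.94 (limma adjusted p = 0.273) without parental culture arrays 1 and 2. The interaction for HOXC10 was 1.10 (SE 0.41, 95% interval 0.20 to 2.00, limma adjusted p = 0.499), and 0.72 (limma adjusted p = 0.691) without spheroid culture replicate 1.

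Between xenografts the limma adjusted p of HOXC10 was under 0.05 in 4 of 24 alternatives, and the highest was 0.678. With only the 6 xenograft arrays in the fit, limma's adjusted p was 0.0318, and 0.0297 with the replicate number as a block as well. Without spheroid culture replicate 1, the array with the lowest HOXC10 value of its group, it was 0.0300 in the fit of the remaining 11. With array weights it was 0.00235. Between parental xenografts and parental culture, limma's adjusted p for HOXC10 was 0.0331 after a further quantile normalisation, 0.0328 after cyclic loess, 0.0286 with the interquartile range of each array as a covariate, 0.0117 with array weights and 0.0251 without spheroid culture replicate 1. The HOXC10 difference between spheroid and parental xenografts ranged from 1.01 to 1.34 over 24 alternatives. Between parental xenografts and parental culture it ranged from -1.17 to -0.83 over 23. Of these 23, 5 gave a limma adjusted p under 0.05, and the highest was 0.304. HOXC10 had a single probe set on the array, so no second probe set bears on it.

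HOXC9, the neighbour of HOXC10 and a gene of the thoracic spinal cord in the mouse, read 7.45, 7.07 and 7.44 in spheroid xenografts, 7.46, 6.34 and 6.09 in parental xenografts, 6.61, 7.02 and 7.38 in spheroid culture and 7.17, 7.34 and 6.89 in parental culture. Parental xenografts 2 and 3 were the lowest of the 12 arrays, and parental xenograft 1 was the highest, so the groups overlapped. The difference between spheroid and parental xenografts was 0.68 (SE 0.31, limma adjusted p = 0.681).

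The signs of the HOXC members were the same in one comparison. In parental cells 9 of 9 HOXC members averaged lower in xenografts than in culture, with a median difference of -0.23, where 51.8% of all genes were lower and the median over all genes was -0.0091. The count was 7 of 9 without parental xenograft replicate 3 or without parental culture replicate 1, and 8 of 9 without parental culture arrays 1 and 2. Parental xenograft 3 held the lowest value of its group for 20 of the 28 members. The 9 values come from the same 6 arrays and partly overlapping transcripts, and only HOXC10 and HOXC4 had an unadjusted p under 0.05. HOXC4 averaged 7.07 ± 0.13 in parental xenografts and 7.46 ± 0.15 in parental culture (SD, n = 3 each), without overlap (difference -0.38, SE 0.15, limma adjusted p = 0.249, and -0.31 with an adjusted p of 0.461 without parental culture arrays 1 and 2). In spheroid cells 4 of 9 HOXC members were lower in the xenografts, with a median difference of 0.03. That count was 7 of 9, with a median of -0.056, without spheroid culture replicate 2. The median was -0.13 without spheroid culture replicate 3, -0.050 without spheroid xenograft replicate 1 and -0.047 without spheroid xenograft replicate 2, with 5 of 9 lower in each.

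**Figure D3:**
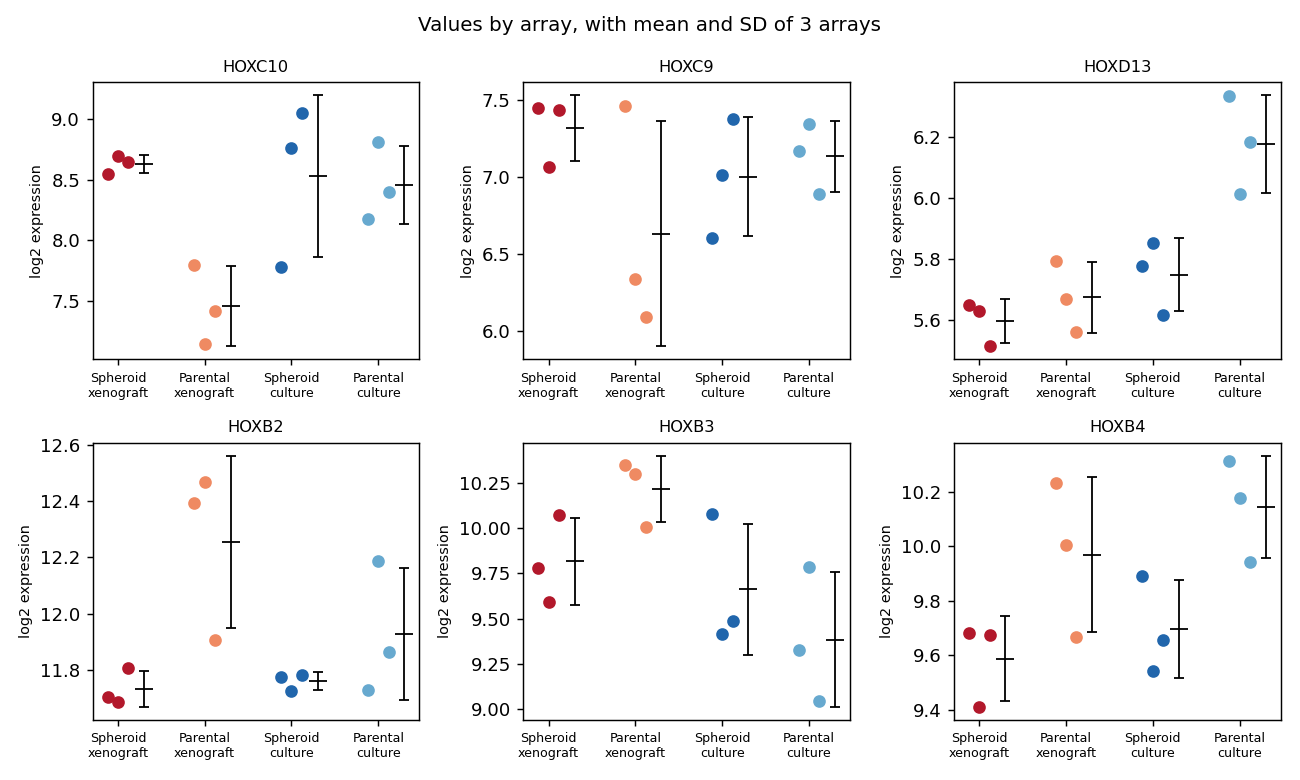
Log2 expression of HOXC10, HOXC9, HOXD13, HOXB2, HOXB3 and HOXB4 on each array, 1 panel per gene, with the group mean and SD of 3 arrays as bars beside the points. The vertical axes do not start at 0 and differ between panels. HOXC10 has its lowest group mean in parental xenografts (7.15 to 7.80), a range that also holds spheroid culture array 1 (7.78). HOXD13 is highest in parental culture (6.01 to 6.34).

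HOXD13, the most posterior HOXD gene and one that shapes digits and genital tissue, was highest in parental culture. It read 5.65, 5.63 and 5.51 in spheroid xenografts, 5.79, 5.67 and 5.56 in parental xenografts, 5.78, 5.85 and 5.62 in spheroid culture and 6.34, 6.01 and 6.19 in parental culture. The 3 parental culture arrays lay above the other 9. Spheroid minus parental culture was -0.43 (SE 0.14, 95% interval -0.73 to -0.13, limma adjusted p = 0.143), and parental xenograft minus parental culture was -0.50 (SE 0.14, 95% interval -0.80 to -0.21, limma adjusted p = 0.0709). The test of any difference gave an adjusted p of 0.0753 for HOXD13, the lowest of the members in that test.

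HOXD13 had 3 probe sets, and the values differed between them. A second one read 4.56 to 4.58 in spheroid xenografts, 4.44 to 4.50 in parental xenografts, 4.44 to 4.56 in spheroid culture and 4.66 to 5.25 in parental culture, so parental culture was again above the other 9 arrays. On the third, the groups overlapped, with 5.33 to 5.79 in spheroid culture and 5.42 to 5.82 in parental culture. These are levels near or below the array medians.

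The limma adjusted p of HOXD13 was under 0.05 in 4 of 22 alternatives in culture, where the highest was 0.462. Between parental xenografts and parental culture it was under 0.05 in 5 of 22, and the highest was 0.333. Median centring was not among them in either comparison. In culture it was 0.0293 after a further quantile normalisation, 0.0172 after cyclic loess, 0.0155 with the interquartile range of each array as a covariate and 0.0443 with array weights, all by limma. Between parental xenografts and parental culture it was 0.0239, 0.0223, 0.0121 and 0.0134 under the same 4 alternatives in that order, and 0.0281 without parental culture replicate 2. With parental culture arrays 1 and 2 both left out no member was called in any comparison, and the HOXD13 differences were -0.44 in culture (limma adjusted p = 0.325) and -0.51 in parental cells (limma adjusted p = 0.167). On that remaining array HOXD13 read 6.19, above the 9 arrays of the other groups.

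HOXB9, a gene of the thoracic skeleton in the mouse, had 2 probe sets, and one of them separated parental culture from the rest. The brighter one, used here, read 7.58, 7.47 and 7.54 in spheroid xenografts, 7.55, 7.48 and 7.49 in parental xenografts, 7.50, 7.57 and 7.64 in spheroid culture and 7.55, 8.59 and 8.07 in parental culture. Parental culture arrays 2 and 3 were the highest of the 12, and array 1 lay among the others. The second read 8.02, 7.98 and 8.02 in parental culture, above the other 9 arrays, which lay between 7.14 and 7.70. By the brighter probe set, spheroid minus parental culture was -0.50 (SE 0.21, limma adjusted p = 0.297) and parental xenograft minus parental culture -0.56 (SE 0.21, limma adjusted p = 0.207). Between parental xenografts and parental culture the HOXB9 difference was -0.57 with a limma adjusted p of 0.0420 when its 2 probe sets were averaged. It was -0.82 with a limma adjusted p of 0.0189 without parental culture replicate 1, and spheroid minus parental culture was then -0.76 (limma adjusted p = 0.0264). Without parental culture replicate 2, the highest array, the HOXB9 differences were -0.30 in parental cells (limma adjusted p = 0.306) and -0.24 in culture (limma adjusted p = 0.561). Without both they were -0.56 (limma adjusted p = 0.0966) and -0.50 (limma adjusted p = 0.184). In parental cells HOXB9 also had a limma adjusted p of 0.0308 after a further quantile normalisation, 0.0283 with the covariate and 0.0192 with array weights. In culture it was 0.0415 with array weights. In all, 5 of 23 alternatives were under 0.05 in parental cells and 2 of 23 in culture.

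**Figure D4:**
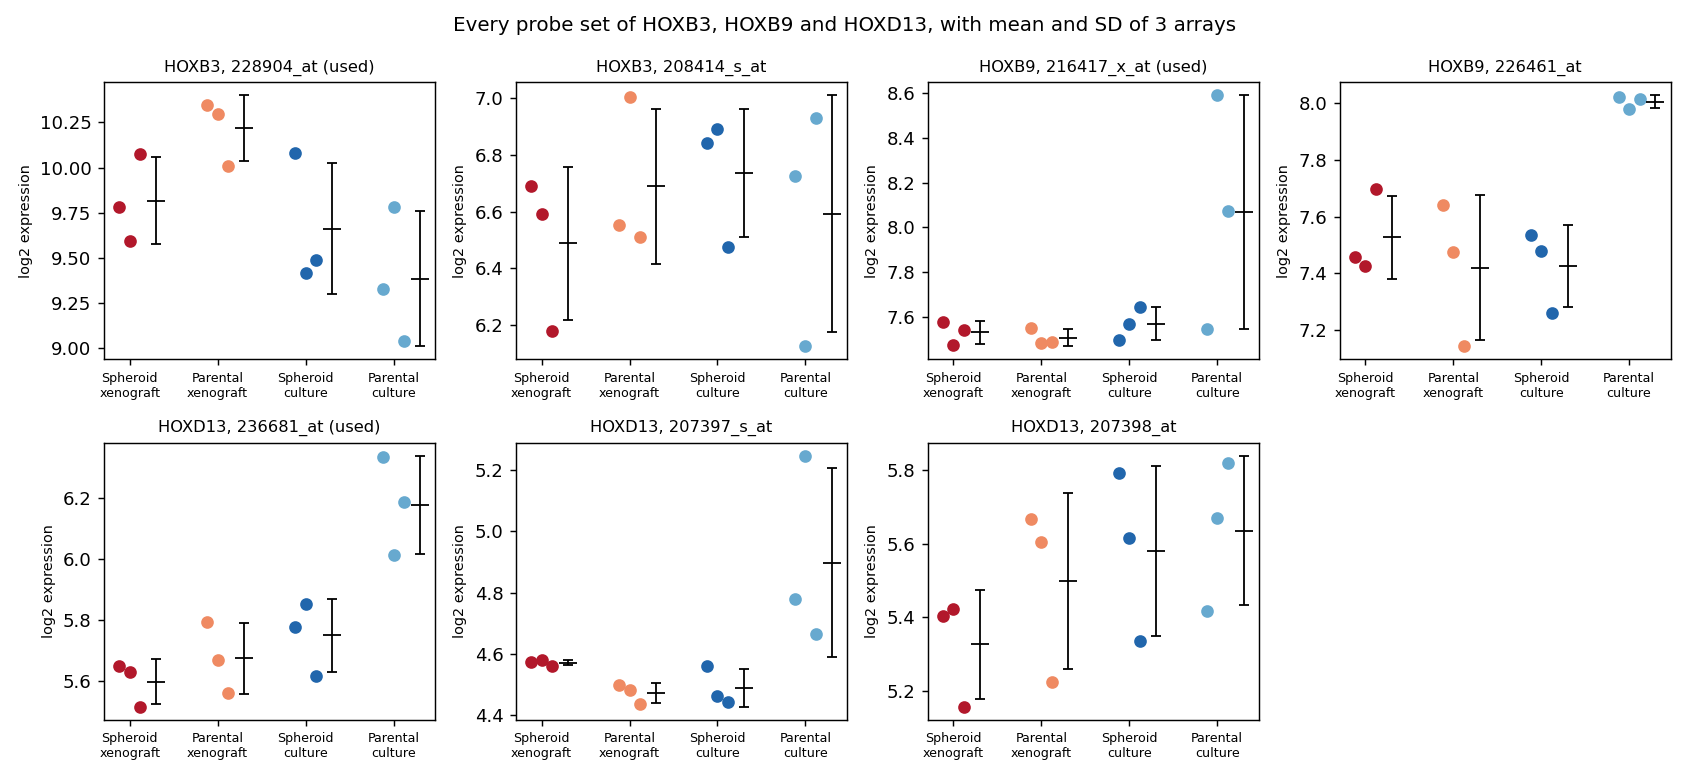
Log2 expression by array for every probe set of HOXB3, HOXB9 and HOXD13, 1 panel per probe set, with the group mean and SD of 3 arrays as bars. The vertical axes do not start at 0 and differ between panels. Parental culture lies above the other 9 arrays on 1 of 2 HOXB9 probe sets (7.98 to 8.02) and on 2 of 3 HOXD13 probe sets, and the dimmer HOXB3 probe set shows overlapping groups.

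Of the anterior HOXB genes, HOXB2 and HOXB3 had their highest group mean in parental xenografts and HOXB4 in parental culture. For HOXB2 the 3 spheroid xenografts (11.69 to 11.81) lay below the 3 parental xenografts (11.91 to 12.47), and the difference was -0.52 (SE 0.17, 95% interval -0.90 to -0.15, limma adjusted p = 0.347). With array weights the HOXB2 difference was -0.67 (limma adjusted p = 0.00380), the only 1 of 24 alternatives under 0.05. For HOXB4 the 3 spheroid culture arrays (9.54 to 9.89) lay below the 3 parental culture arrays (9.94 to 10.31), a gap of -0.45 (SE 0.18, limma adjusted p = 0.261), which was -0.24 (limma adjusted p = 0.829) without parental culture arrays 1 and 2. The same contrast for HOXB4 in xenografts was -0.38 (limma adjusted p = 0.695), where the groups overlapped, and -0.49 (limma adjusted p = 0.0460) with array weights.

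HOXB3 read 10.35, 10.30 and 10.01 in parental xenografts and 9.33, 9.78 and 9.04 in parental culture, without overlap, while spheroid xenografts had 9.78, 9.59 and 10.07 and spheroid culture 10.08, 9.42 and 9.49, which overlapped. In parental cells the difference was 0.83 (SE 0.23, 95% interval 0.33 to 1.34, limma adjusted p = 0.0743). It was 1.03 with a limma adjusted p of 0.0166 without parental culture replicate 2. The adjusted p was 0.0497 without spheroid culture replicate 1, 0.0355 with the covariate and 0.00153 with array weights. These were the 4 of 23 alternatives with an adjusted p under 0.05. The HOXB3 difference was 1.18 (limma adjusted p = 0.0573) without parental culture arrays 1 and 2. The interaction for HOXB3 was -0.68 (SE 0.32, limma adjusted p = 0.718), -0.97 (limma adjusted p = 0.0384) with array weights and -1.02 (limma adjusted p = 0.322) without parental culture arrays 1 and 2. The second HOXB3 probe set, which read between 6.13 and 7.00, had a difference of 0.10 in parental cells.

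HOXD8, a gene of the trunk axis, had the widest range of the members. It read 5.22, 6.14 and 6.58 in spheroid xenografts, 7.00, 5.79 and 6.55 in parental xenografts, 6.56, 6.80 and 7.46 in spheroid culture and 6.48, 6.99 and 5.65 in parental culture. The groups overlapped, and within each of the 4 groups the arrays spread over most of a unit or more. Xenograft minus culture in spheroid cells was -0.96 (SE 0.43, 95% interval -1.89 to -0.03, limma adjusted p = 0.659), and it was -0.58 (limma adjusted p = 0.922) without spheroid xenograft replicate 1. With the replicate number as a block and only the 6 spheroid arrays in the fit, the limma adjusted p was 0.0252. In 3 of 3 pairs spheroid xenograft was below the spheroid culture array of the same number. That fit was the only 1 of 23 alternatives with an adjusted p under 0.05.

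HOXD9 lay without overlap in 2 comparisons by small amounts on the brighter of its 2 probe sets. It read 6.22, 6.56 and 6.34 in spheroid xenografts and 6.57, 6.69 and 6.59 in spheroid culture (difference -0.24, limma adjusted p = 0.794), without overlap. Those spheroid culture values also lay below the 6.85, 6.73 and 6.89 of parental culture (difference -0.21, limma adjusted p = 0.581, and -0.28 with an adjusted p of 0.678 without parental culture arrays 1 and 2). The second HOXD9 probe set had the other sign in both, with 0.091 for spheroid xenografts minus spheroid culture and 0.14 for spheroid minus parental culture. In all, groups did not overlap for 3 members in culture (HOXB4, HOXD9 and HOXD13), against 13.8% of all genes, and for 3 in xenografts (HOXB2, HOXC10 and HOXD4), against 16.5%. For xenograft minus culture they did not overlap for 4 members in parental cells, against 13.6%, and for 2 in spheroid cells (HOXB1 and HOXD9), against 18.7%. Of the 13 members with several probe sets, all probe sets of a member had the same sign for 11 in culture, 6 in xenografts, and 7 and 5 in xenograft minus culture of parental and spheroid cells.

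Some genes listed as markers of host cells, and of epithelial and mesenchymal state, differed in the same comparisons. The arrays were made for human RNA. Whether marker readings in tumours came from host cells or from the human tumour cells was not tested. Of all genes, limma called 3.47% in xenograft minus culture of parental cells, 2.46% in spheroid minus parental culture and 0.233% in spheroid minus parental xenografts. Of 11 fibroblast markers, 3 rose in parental xenografts over parental culture by limma: FAP by 2.20, COL3A1 by 2.06 and POSTN by 0.84. Without parental culture arrays 1 and 2 the differences were 2.11 for FAP (limma adjusted p = 0.00705), 2.15 for COL3A1 (0.0766) and 0.81 for POSTN (0.1005). FAP was also lower in spheroid than in parental xenografts (difference -1.35, limma adjusted p = 0.0365), a call lost in 8 of 12 fits that left out 1 array. The summed fibroblast level was 67.6 to 68.6 in spheroid xenografts, 68.2 to 73.3 in parental xenografts, 65.7 to 67.4 in spheroid culture and 62.7 to 66.7 in parental culture, and the defining marker LUM was below the lower quartile on all 12 arrays. Of 8 endothelial markers 1, ENG, rose, by 0.70 in spheroid over parental culture (limma adjusted p = 0.0464, and 0.109 without parental culture arrays 1 and 2). Spheroid culture and parental culture hold no host tissue. The ENG call was lost in 10 of 12 fits that left out 1 array, and its cause was not tested. Endothelial sums were 45.3 to 47.1 in spheroid xenografts, 44.4 to 46.6 in parental xenografts, 45.6 to 47.2 in spheroid culture and 43.3 to 46.7 in parental culture, and KDR was below the lower quartile on all 12. Of 8 epithelial markers, KRT8 fell by 1.43 in spheroid against parental culture (limma adjusted p = 0.0109), where HOXB4, HOXB9 and HOXD13 also averaged lower. In parental xenografts against parental culture, where HOXB9, HOXC4, HOXC10 and HOXD13 averaged lower, KRT8 fell by 1.77 (limma adjusted p = 0.00278) and KRT18 by 1.71 (limma adjusted p = 0.0191). The KRT8 differences were -1.58 in culture (limma adjusted p = 0.0463) and -1.92 in parental cells (limma adjusted p = 0.0145) without parental culture arrays 1 and 2. The summed epithelial level was 50.3 to 50.9 in spheroid xenografts, 48.8 to 51.2 in parental xenografts, 50.7 to 51.9 in spheroid culture and 52.8 to 54.4 in parental culture. Of 4 mesenchymal markers, FN1 rose by 4.02 (limma adjusted p = 0.0164) and CDH2 fell by 0.71 (limma adjusted p = 0.0439) in parental xenografts against parental culture, with adjusted p of 0.0729 and 0.115 without parental culture arrays 1 and 2. Their sums were 39.1 to 40.9 in spheroid xenografts, 43.7 to 45.1 in parental xenografts, 38.5 to 42.1 in spheroid culture and 39.1 to 40.9 in parental culture. None of 7 myeloid markers was called (sums 37.5 to 39.6, 37.1 to 39.9, 38.4 to 40.2 and 36.2 to 39.9 in the same order of groups). The part of host cells in the HOXC10 and HOXB3 values of parental xenografts was not tested, nor was that of the epithelial and mesenchymal differences in the values of HOX members in the same comparisons.

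The partners of HOX proteins were measured through 9 TALE cofactors. PBX2 (7.99 to 9.12), PBX3 (10.04 to 11.59), MEIS2 (up to 9.73) and TGIF1 (9.44 to 10.59), a TALE repressor, were above the upper quartile on every array. PBX2 and PBX3 are named outside the rule for named genes. No cofactor was called in the 5 comparisons. PBX4 was called in the test of any difference (limma adjusted p = 0.0306), with means of 7.73 ± 0.35 in spheroid xenografts, 7.23 ± 0.36 in parental xenografts, 7.11 ± 0.23 in spheroid culture and 6.45 ± 0.25 in parental culture (SD, n = 3 each). All 3 parental culture arrays of PBX4 were below the other 9. The adjusted p of PBX4 was 0.0656 without parental culture arrays 1 and 2, and the call was lost in 5 of 12 fits that left out 1 array. MEIS2 had the lowest p of the list in culture, with a difference of -0.87 (limma adjusted p = 0.143). It read 8.27, 7.99 and 8.43 in spheroid culture and 8.71, 9.73 and 8.85 in parental culture. The MEIS2 difference was -0.55 (limma adjusted p = 0.2496) without parental culture replicate 2 and -0.62 (limma adjusted p = 0.457) without arrays 1 and 2. The list's median difference was 0.18 in culture, against 0.07 over all genes.

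Among 15 trithorax genes and other activators of HOX transcription, limma called 1 in culture, against 2.46% of all genes, and 1 in xenograft minus culture of parental cells, against 3.47%. KMT2B, a histone H3 lysine methyltransferase, read 7.90, 7.49 and 7.23 in spheroid culture and 8.60, 8.55 and 8.32 in parental culture. It fell by 0.95 in spheroid culture (limma adjusted p = 0.0222), with no overlap. The KMT2B difference was -0.78 (limma adjusted p = 0.225) without parental culture arrays 1 and 2, and the call was lost in 2 of 12 fits that left out 1 array. BPTF, a subunit of a nucleosome remodeller, read 10.11, 10.05 and 9.88 in parental xenografts and 8.91, 9.54 and 8.82 in parental culture, a rise of 0.93 (limma adjusted p = 0.0471). The BPTF difference was 1.199 (limma adjusted p = 0.0462) without parental culture arrays 1 and 2, while the call was lost in 10 of 12 fits that left out 1 array. In xenografts the lowest p of the list was that of PSIP1 (limma adjusted p = 0.789), in xenograft minus culture of spheroid cells that of KMT2A (0.330), and in the interaction that of KMT2B (0.276).

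None of 24 Polycomb genes was called in any comparison. PHC1, a subunit of Polycomb repressive complex 1, had the lowest p in culture (difference 1.14, limma adjusted p = 0.0934) and in xenograft minus culture of parental cells (difference 1.18, limma adjusted p = 0.0704). It read 11.65 to 11.77 in spheroid xenografts, 11.23 to 11.72 in parental xenografts, 11.16 to 11.55 in spheroid culture and 10.24, 9.38 and 11.06 in parental culture, so the 3 parental culture arrays were the lowest, and arrays 1 and 2 the lowest of these. Without arrays 1 and 2 the PHC1 differences were 0.31 in culture (limma adjusted p = 0.707) and 0.35 in parental cells (limma adjusted p = 0.446). Without parental culture replicate 3 they were 1.56 (limma adjusted p = 0.0194) and 1.60 (limma adjusted p = 0.0134), and without replicate 2 they were 0.72 (limma adjusted p = 0.121) and 0.76 (limma adjusted p = 0.0709). PHC2 had the lowest p in xenografts (limma adjusted p = 0.900) and PCGF5 in xenograft minus culture of spheroid cells (0.480). EZH2, the catalytic subunit of Polycomb repressive complex 2, was above the upper quartile on every array, from 9.18 to 10.48; it is named outside the rule for named genes, after its values were seen. Median differences of the Polycomb list lay between -0.079 and 0.044 in the 5 comparisons.

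Of 16 upstream inputs to the HOX clusters, such as CDX factors and the retinoic acid pathway that switches HOX genes on in the embryo, none was called. The retinoid receptor RXRA had the lowest p in 3 comparisons. It read 8.34, 8.49 and 9.15 in spheroid xenografts, 8.29, 7.87 and 8.08 in parental xenografts, 7.94, 7.77 and 8.01 in spheroid culture and 7.96, 7.76 and 7.37 in parental culture. Spheroid xenografts were the highest 3 arrays (spheroid minus parental xenografts 0.58, limma adjusted p = 0.500). CRABP2, a retinoic acid carrier, had the lowest p in culture (difference 0.65, limma adjusted p = 0.239), and its difference was 0.39 (limma adjusted p = 0.803) without parental culture arrays 1 and 2.

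Noncoding RNAs of the clusters and genes beside them made up a list of 21, of which none was called. HAGLR, a noncoding RNA of the HOXD cluster, read 6.17, 7.05 and 7.47 in spheroid xenografts, 5.81, 5.77 and 5.64 in parental xenografts, 6.15, 5.87 and 6.54 in spheroid culture and 6.44, 5.55 and 5.64 in parental culture. The spheroid xenografts were above the parental xenografts without overlap, by 1.16 (limma adjusted p = 0.224). HIBADH, beside HOXA, and LNPK, beside HOXD, had the lowest p in culture (limma adjusted p = 0.601) and in xenograft minus culture of parental cells (0.372), with 0.423 for HIBADH and 0.416 for LNPK without parental culture arrays 1 and 2. HOTAIR, the HOXC RNA studied in metastasis, was below the lower quartile on every array, from 3.73 to 4.06, and the HOXB microRNA host transcript read through the MIR10A probe set ranged from 5.94 to 7.29 with no difference called. Both are named after their values were seen, and the MIR10A probe set reads a transcript of the locus and not the mature sequence shown above.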

How the data were processed

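Total RNA of 12 samples (4 groups of 3) was measured on 1 Affymetrix array each. The deposited values are log2 expression values, 1 for each of 54675 probe sets, and the submitters' processing notes name RMA and affy, an R package, without versions. Joint normalisation of the 12 arrays is not stated. RMA estimates a probe set's level from its probes after quantile normalisation, which removes differences in overall brightness.

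From these values the following was computed. Of the probe sets, 41091 had 1 platform symbol, 1801 several and 11783 none, 62 being controls, and genes were named only from those with 1. The gene number of 41043 probe sets was found in the RefSeq gene table of GRCh38.p14. Of the members, 8 were represented by a probe set ending in _s_at or _x_at, which can match several transcripts. Each of 19775 genes was fitted with limma 3.58.1 in R 4.3.3, with 1 mean per group, 8 residual degrees of freedom, no filter on dim genes and eBayes moderation. Tests were two-sided, and the threshold for a call was 0.05 after Benjamini-Hochberg adjustment across all genes of a comparison. The precision is limited by 3 arrays per group. The fit was tested on simulated data.

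Replicate numbers come from the sample titles. Deviations of same-numbered arrays correlated at 0.18, 0.21 and 0.48 between spheroid and parental xenografts. Between spheroid xenografts and spheroid culture they correlated at 0.34, 0.33 and 0.43. The fit described above had group means only and paired no arrays. These pairs were used only in the alternative with a replicate block and just the arrays compared. There limma's adjusted p was 0.0297 for HOXC10 between xenografts, against 0.173 without pairing. For HOXD8 in spheroid cells it was 0.0252, against 0.659. The correlations ran from -0.56 to 0.33 where parental culture was involved. The numbers were therefore not taken to pair those arrays, except in the alternative with a replicate block in all arrays.

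All HOX members could be named. From each other list the called genes were named, at most 4 per comparison by size, or else the gene with the lowest p. The members and lists were chosen with earlier results of these data known. The alternatives were other scalings, probe set rules, a filter on dim genes, an array covariate, array weights, a replicate block, fits of 6 arrays and leaving out arrays. Leaving out parental culture arrays 1 and 2 together, and the block with 6 arrays, were chosen after seeing the data.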

Additional observations from a re-analysis of the deposited data

How the results depend on the processing

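The count of HOX members called, 0 in each comparison as reported, was recomputed with limma under each alternative. In spheroid minus parental culture it was 1 after a further quantile normalisation, 1 after cyclic loess, 1 with array spread as a covariate and 2 with array weights. In spheroid minus parental xenografts it was 3 with array weights, 1 with only the 6 arrays compared and 1 with these and the replicate block, whereas the replicate block in all 12 arrays gave 0. In xenograft minus culture of parental cells it was 3 after quantile normalisation, 2 after cyclic loess, 1 with the mean of all probe sets, 4 with the covariate and 5 with array weights. In spheroid cells it was 1 with the replicate block and only the 6 arrays compared, and in the interaction 1 with array weights. The test of any difference gave 3 after quantile normalisation, 1 after median centring, 2 after cyclic loess, 2 with the covariate and 7 with array weights. Leaving out 1 array at a time gave 0 to 1 in culture, 0 to 1 in xenografts, 0 to 2 in xenograft minus culture of parental cells, 0 to 0 in spheroid cells, 0 to 0 in the interaction and 0 to 1 in the test of any difference. Without parental culture arrays 1 and 2 it was 0 in all of these. The replicate block in all 12 arrays called no member in any comparison. The share of all genes called under each alternative is not printed beside these counts. The counts alone therefore do not set the members apart from other genes. The cause of these shifts was not tested.

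None of the 12 member differences with an unadjusted p under 0.05 changed sign under any alternative run. The filter on dim genes left 13 of 28 members in the test and removed HOXD13. Scalings moved the median of all genes by under 0.1, while leaving out parental culture arrays 1 and 2 moved it by -0.105 in culture, and the filter on dim genes by 0.102 in xenograft minus culture of spheroid cells. Members near the lower quartile are limited by background.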

Other observations

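Among 29 homeobox genes outside the HOX clusters, limma called 3 in culture (against 2.46% of all genes), 1 in xenografts (0.233%), 2 in xenograft minus culture of parental cells (3.47%), 0 in spheroid cells (0.0202%) and 1 in the interaction (0.137%). Without parental culture arrays 1 and 2 the counts were 0 (against 1.24% of all genes), 2 (0.541%), 1 (2.80%), 1 (0.248%) and 1 (0.314%) in the same order. PRRX1, a factor of limb and connective tissue mesenchyme, read 5.88, 5.46 and 5.97 in spheroid xenografts, 8.97, 8.45 and 9.32 in parental xenografts, 7.61, 7.33 and 7.22 in spheroid culture and 7.44, 8.15 and 7.09 in parental culture. The spheroid xenografts were the lowest 3 arrays and the parental xenografts the highest 3. PRRX1 fell by 3.14 in spheroid against parental xenografts (limma adjusted p = 0.000846) and rose by 1.35 in parental xenografts over parental culture (limma adjusted p = 0.0239). Its interaction was -2.97 (limma adjusted p = 0.0190). Without parental culture arrays 1 and 2 the rise of PRRX1 in parental cells was 1.82 (limma adjusted p = 0.0168) and its interaction -3.43 (limma adjusted p = 0.0128). Of 12 fits that left out 1 array, the PRRX1 call was lost in 0 for xenografts, in 4 for parental cells and in 5 for the interaction. PRRX1 is also expressed by fibroblasts, whose markers COL3A1, FAP and POSTN rose in the same parental xenografts, and their part in it was not tested.

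In culture, ISL1, a LIM homeobox factor of motor neurons and heart progenitors, read 5.42, 4.96 and 5.13 in spheroid culture and 5.99, 6.91 and 6.24 in parental culture, a difference of -1.21 (limma adjusted p = 0.0182). LHX6, a LIM homeobox factor of forebrain interneurons, read 8.01, 8.01 and 8.17 in spheroid culture and 6.39, 6.67 and 6.92 in parental culture, a rise of 1.40 (limma adjusted p = 0.0191). GBX2, a hindbrain patterning factor, rose by 0.66 in spheroid culture (limma adjusted p = 0.0495), and TSHZ3 fell by 0.91 in parental xenografts against parental culture (limma adjusted p = 0.0437). Without parental culture arrays 1 and 2 none of these 4 was called, with -1.07 for ISL1 (limma adjusted p = 0.0618), 1.14 for LHX6 (0.204), 0.81 for GBX2 (0.110) and -0.74 for TSHZ3 (0.153). Leaving out 1 array lost the call in 2 of 12 fits for ISL1, 2 for LHX6, 10 for GBX2 and 11 for TSHZ3. Over the alternatives run, the number of these genes called ranged from 0 to 4 in culture and from 1 to 4 in xenografts.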
